A study of Mus musculus with 6 samples.

Results

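The RAS-RAF-MEK-ERK cascade is represented here by 7 genes of abdominal white adipose tissue (WAT), namely the RAS GTPases Nras, Hras1 and Mras, the RAF kinases Araf and Braf, the MEK kinase Map2k1 and the ERK kinase Mapk3. They were found on the arrays as every non-control probe whose gene name was one of these symbols or an older symbol of one of them, which gave 18 probes of 41174 on the array. All 18 were among the 31456 probes kept for testing, and the 7 genes are 7 of 21059 genes with a kept probe. Other RAS, RAF, MEK and ERK genes were not analysed here.

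RNA came from female C57/BL6 mice at 30 wk of age that were either hNAG-1 transgenic or wild type (WT). The hNAG-1 mice carry the human gene of NAG-1 (GDF15), a secreted TGF-beta family member, which by the study's methods is expressed in most tissues and strongly in white and brown fat, and the animals on the arrays are from 1 transgenic line. The transgene is human, and no probe used here checks it. The diet and the promoter of the transgene are not given in the sources used here. Each of the 6 single-colour arrays held RNA from a pool of 2 mice, with 3 pools per genotype and therefore 6 mice of each.

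In this cascade, a growth factor receptor on the cell surface recruits adaptors and an exchange factor, which loads RAS with GTP. GTP-bound RAS brings RAF to the membrane, RAF phosphorylates MEK, and MEK phosphorylates ERK, which then acts on kinases and transcription factors in the cytoplasm and nucleus. In fat tissue the cascade is one of the branches below the insulin and IGF-1 receptors. The flow through it is set by phosphorylation and GTP loading, neither of which an expression array measures, and the values below are mRNA signals only.

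All probes were 60 bases long. Of the 18, 4 map to a stretch of mouse build mm7 that is longer than the probe, so they cross an intron in the transcript, and they hold an open reading frame over their length. They are shown because they read spliced transcript, because both Mras probes among them differed in the same direction, and because both Braf probes among them went against the brightest Braf probe. The Mras probes are at chr9:99030658-99031945 and chr9:99031965-99035157, and the Braf probes at chr6:39574403-39576806 and chr6:39578478-39578871, all listed by the file with the higher coordinate first. They are printed 5′ to 3′ in lower case with no base marked.
Mras A_51_P519700: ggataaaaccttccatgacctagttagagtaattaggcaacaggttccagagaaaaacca
Mras A_52_P256929: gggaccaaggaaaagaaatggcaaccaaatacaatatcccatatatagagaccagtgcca
Braf A_52_P39724: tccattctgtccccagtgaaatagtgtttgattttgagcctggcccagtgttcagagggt
Braf A_52_P595117: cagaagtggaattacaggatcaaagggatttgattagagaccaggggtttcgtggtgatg

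The 75th percentile of the signal was 657 to 896 on hNAG-1 arrays and 958 to 1029 on WT arrays, and each array was scaled by it. A value of 0 below therefore means a signal equal to the 75th percentile of its array, and each step of 1 is a doubling. Each array had 71.2% to 82.0% of its spots well above background. The slide of the 3 WT arrays also held hNAG-1 replicate 1, while the other 2 hNAG-1 arrays had a slide to themselves. All 10 adipocyte markers examined were measured on every array, and all 10 had a positive difference (median 0.25 on the log2 scale, 0 of 10 past the adjusted threshold), with a summed scaled signal of 1743 to 2066 on hNAG-1 arrays and 1404 to 1743 on WT arrays. The adipocyte median was 0.061 with quantile normalization and 0.44 with normexp background correction. The medians of all probes were 0.012 and -0.25 there, and 0.072 in the reported fit. The 8 macrophage markers all had a negative difference (median -0.24), with overlapping sums of 122 to 126 on hNAG-1 and 113 to 147 on WT arrays. With normexp correction the macrophage median was -0.25, about that of all probes. The 6 smooth muscle markers also had negative differences (median -1.53). Their summed signal ran from 55.5 to 86.8 on hNAG-1 arrays and from 55.8 to 381 on WT arrays. In a bulk tissue, fewer cells of a type and less RNA per cell cannot be told apart. The part of these markers in the results below was not tested.

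No member differed between hNAG-1 and WT mice at an adjusted p of 0.05 in limma (0 of 18 probes, and 0.0% of the 31456 kept probes). Hras1 had the smallest p, with a signal about 1.26 times as high in hNAG-1 mice, and was the only probe of 18 (5.56%) at an unadjusted p under 0.05. At that level hNAG-1 mice exceeded WT mice at 9.25% of all kept probes and lay below them at 3.61%. The 4 Mras probes all had lower means in hNAG-1 mice, by 0.10 to 0.24 on the log2 scale, except that the brightest turned to 0.030 with normexp background correction. The probes of Nras, Araf and Braf disagreed in sign. The Map2k1 probe and both Mapk3 probes had higher means in hNAG-1 mice, by 0.11 to 0.19, with groups that overlapped at each.

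The 3 hNAG-1 pools did not overlap the 3 WT pools at 4 member probes, 1 of them higher and 3 lower in hNAG-1 mice, where 14.5% of all probes were higher without overlap and 6.04% lower. As shares of the 18 these are 5.56% and 16.7%, and 2 of the 3 lower ones are Mras probes, which read the same gene in the same pools. The member probes gave 8 positive and 10 negative differences, with a median of -0.058, where the median of all kept probes was 0.072. By the brightest probe of each gene, 5 of the 7 differences were positive and 2 were negative. The 16 intervals inside -1 and 1 limit these differences to less than a factor of 2 in either direction, and the other 2 belong to the dim Braf probes.

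**Figure D1:**
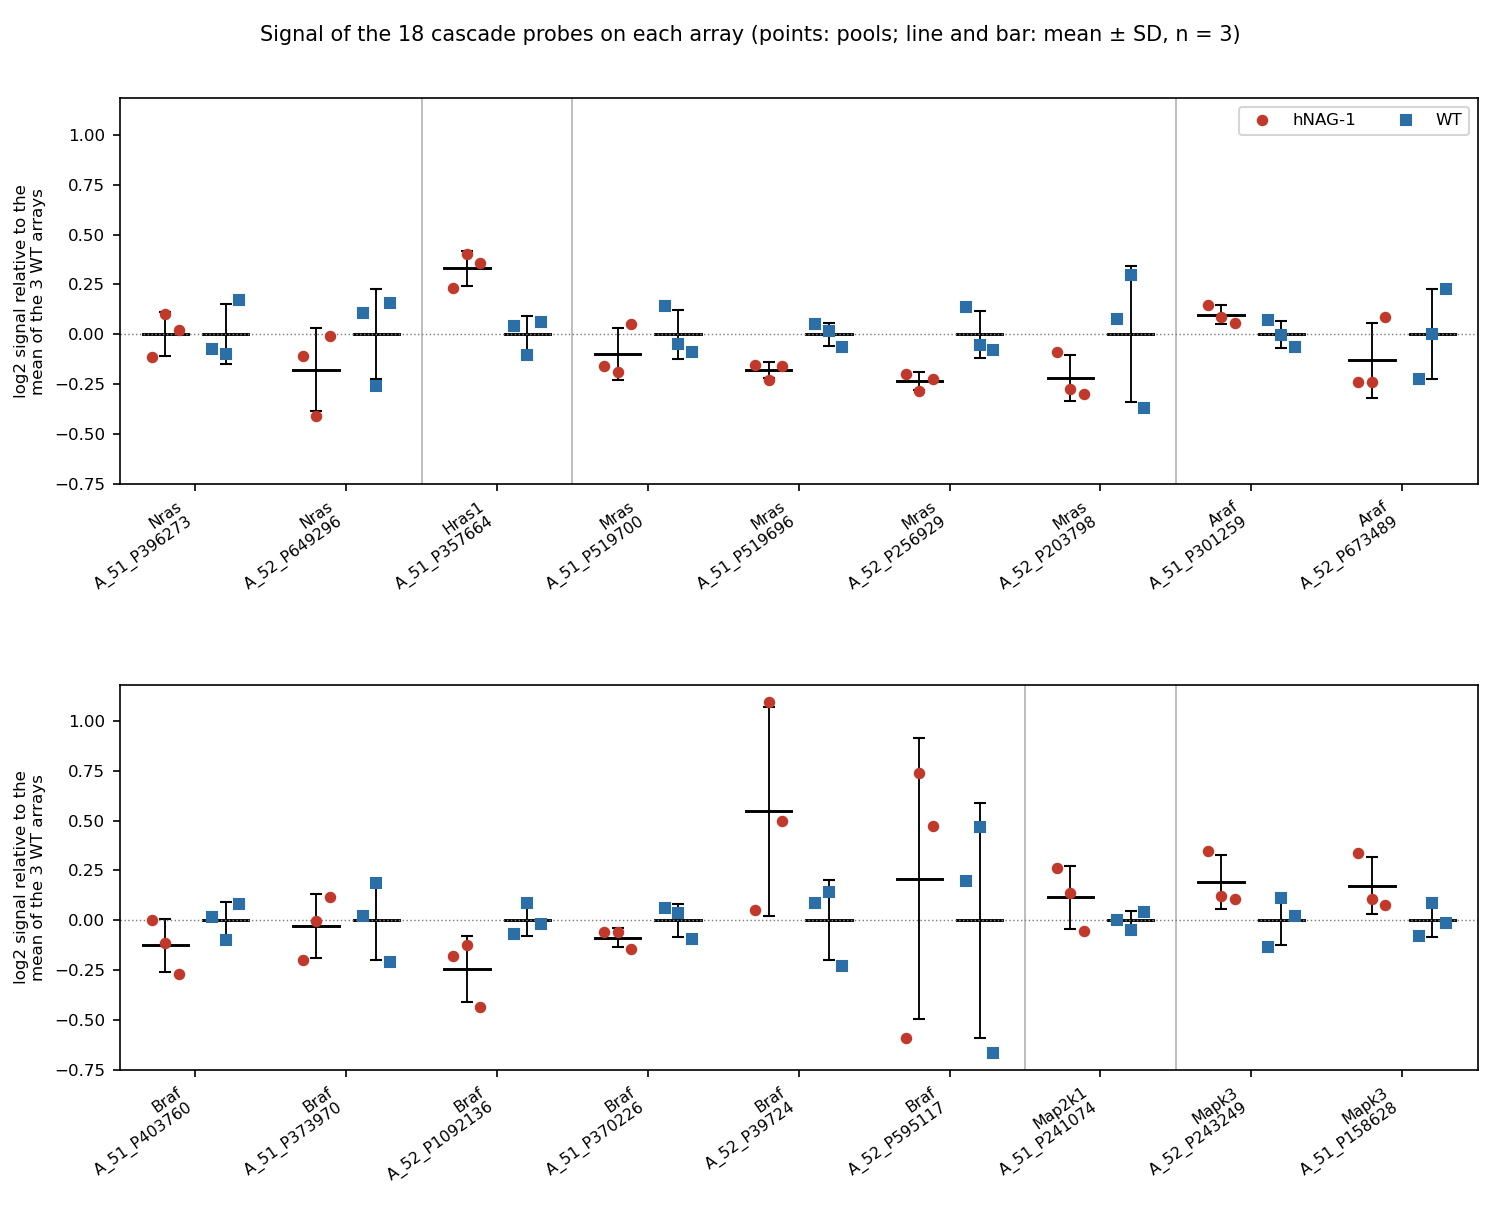
The log2 signal (vertical axis) of each of the 18 probes (horizontal axis) on the 3 hNAG-1 arrays (circles) and the 3 WT arrays (squares), drawn against the WT mean of that probe, with mean and SD as line and bar. The 3 Hras1 circles lie above all 3 squares, and the circles lie below all squares at Mras A_51_P519696, Mras A_52_P256929 and Braf A_52_P1092136.

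Nras, a RAS isoform found in most cells, was read by 2 probes. The brighter, A_51_P396273 (chr3:102860333-102860392), was at -0.046, 0.17 and 0.091 in hNAG-1 pools, against -0.0029, -0.03 and 0.24 in WT pools. The 6 values interleave, and the means were 0.072 ± 0.11 in hNAG-1 and 0.07 ± 0.15 in WT mice (SD, n = 3 each). The difference was 0.0020 on the log2 scale (SE 0.13, 95% confidence interval -0.32 to 0.32, limma adjusted p = 0.997). The dimmer probe, A_52_P649296, was at -0.71, -1.01 and -0.61 in hNAG-1 pools and -0.50, -0.86 and -0.44 in WT pools. Its difference was -0.18 (SE 0.17, limma adjusted p = 0.696), and replicate 2 was the lowest array of each genotype.

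Hras1, whose current symbol is Hras, is another RAS isoform and was read by 1 probe, A_51_P357664 (chr7:137608660-137608719). It was at 2.07, 2.24 and 2.20 in hNAG-1 pools, against 1.88, 1.74 and 1.90 in WT pools. Every hNAG-1 pool was above every WT pool, and the lowest hNAG-1 value was that of the array on the slide of the WT arrays. The mean was 2.17 ± 0.088 in hNAG-1 mice and 1.84 ± 0.089 in WT mice (SD, n = 3 each). The difference was 0.33 (SE 0.11, 95% confidence interval 0.057 to 0.60), with an adjusted p of 0.333 in limma (0.0255 before adjustment). Fitted with slide as a fixed block, the Hras1 difference was 0.23 (limma unadjusted p = 0.202), and within the slide that held both genotypes it was also 0.23 (limma unadjusted p = 0.29). With the array median in place of the 75th percentile its limma unadjusted p was 0.149, with normexp correction 0.177 and with the replicate block 0.0758. Leaving out hNAG-1 replicate 2, hNAG-1 replicate 3, WT replicate 1 or WT replicate 2 gave limma unadjusted p-values of 0.091, 0.073, 0.054 and 0.069. Over all alternatives run, the Hras1 difference stayed positive, between 0.23 and 0.40.

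Mras, a RAS relative whose name stands for muscle RAS and which, with Shoc2 and a phosphatase, forms a complex that activates RAF, was read by 4 probes. The brightest, A_51_P519700, was at 0.72, 0.69 and 0.93 in hNAG-1 pools, against 1.02, 0.83 and 0.79 in WT pools. The groups overlap through hNAG-1 replicate 3, and the means were 0.78 ± 0.13 in hNAG-1 and 0.88 ± 0.12 in WT mice (SD, n = 3 each). The difference was -0.10 (SE 0.13, 95% confidence interval -0.41 to 0.21, limma adjusted p = 0.764).

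Probe A_51_P519696 (chr9:99030325-99030384) read Mras at 0.28, 0.20 and 0.27 in hNAG-1 pools and at 0.48, 0.44 and 0.37 in WT pools. Probe A_52_P256929, the second intron-crossing Mras probe, was at -0.35, -0.44 and -0.38 in hNAG-1 pools and at -0.02, -0.21 and -0.23 in WT pools. At both probes every hNAG-1 pool was below every WT pool. Their differences were -0.18 (SE 0.10, limma adjusted p = 0.499) and -0.24 (SE 0.11, limma adjusted p = 0.441). The dimmest, A_52_P203798, is named by the file as 2900078C09Rik, an older name of Mras. It was at -3.14, -3.32 and -3.35 in hNAG-1 pools and -2.97, -2.75 and -3.42 in WT pools, where WT replicate 3 was the lowest of all 6 arrays, and its difference was -0.22 (SE 0.20, limma adjusted p = 0.663). No pair of the 4 probes shares more than 8 bases in a row, though all 4 read the same 6 pools.

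The direction at Mras depended in part on the background correction. With normexp correction, under which the median of all probes moved to -0.25 (0.072 with the processed signal), the brightest Mras probe turned to 0.030 and the others stayed at -0.096, -0.25 and -0.58. Relative to that median the 4 were at 0.28, 0.15, -0.0012 and -0.33, given in the order A_51_P519700, A_51_P519696, A_52_P256929 and A_52_P203798. With slide as a fixed block the 4 differences were -0.16, -0.15, -0.20 and -0.088 in the same order. Skeletal muscle markers, given here because Mras is also a gene of muscle, had a summed signal of 65.0 to 390 on hNAG-1 arrays and 49.8 to 244 on WT arrays, with 9 of 10 differences positive and a median of 0.28, which turned to -0.79 with slide as a fixed block, -0.50 without hNAG-1 replicate 2 and -0.41 without WT replicate 3. Their part in the Mras values, and that of the smooth muscle markers above, was not tested.

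Araf, one of the RAF kinases, sits on the X chromosome and was read by 2 probes of opposite sign. The bright probe A_51_P301259 (chrX:19293486-19293545) was at 3.07, 3.01 and 2.98 in hNAG-1 pools, against 2.99, 2.91 and 2.85 in WT pools. Only the lowest hNAG-1 pool lay inside the WT range, and the difference was 0.098 (SE 0.10, 95% confidence interval -0.15 to 0.35, limma adjusted p = 0.713). It was -0.0098 after quantile normalization. The dim probe A_52_P673489, designed on another transcript record, was at -5.05, -5.05 and -4.73 in hNAG-1 pools and -5.04, -4.81 and -4.59 in WT pools. The groups overlap and the difference was -0.13 (SE 0.17, limma adjusted p = 0.765).

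Braf, the RAF kinase with the most probes here, was read by 6. The study lists Braf and Mras from its own pathway analysis of these arrays, so their values here are not independent evidence of a direction. The brightest probe, A_51_P403760 (chr6:39533784-39533843), was at 0.24, 0.12 and -0.032 in hNAG-1 pools, against 0.25, 0.14 and 0.31 in WT pools. The groups overlap, with means of 0.11 ± 0.14 in hNAG-1 and 0.23 ± 0.09 in WT mice (SD, n = 3 each). The difference was -0.13 (SE 0.12, 95% confidence interval -0.43 to 0.17, limma adjusted p = 0.690), and 0.0023 once slide was a fixed block.

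Among the 5 other Braf probes the differences ran from -0.24 to 0.55. Probe A_52_P1092136 was at -2.97, -2.91 and -3.22 in hNAG-1 pools and -2.86, -2.70 and -2.81 in WT pools. Every hNAG-1 pool was below every WT pool there, and the difference was -0.24 (SE 0.13, limma adjusted p = 0.479). Probes A_51_P373970 and A_51_P370226 had overlapping groups and differences of -0.029 and -0.087.

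The 2 intron-crossing Braf probes were dim and had the largest SEs of the 18. A_52_P39724 was at -4.93, -3.89 and -4.49 in hNAG-1 pools and -4.90, -4.84 and -5.21 in WT pools. Its difference of 0.55 (SE 0.28, limma adjusted p = 0.473) came with a hNAG-1 SD of 0.52, against 0.20 in WT mice, and turned to -0.39 with normexp correction. A_52_P595117 was at -6.32, -4.99 and -5.25 in hNAG-1 pools and -5.53, -5.26 and -6.39 in WT pools, and was well above background on 3 hNAG-1 arrays and 2 WT arrays. Its difference was 0.21 (SE 0.45, limma adjusted p = 0.862), and -0.59 once slide was a fixed block. The sign of Braf therefore differed between its probes, with 4 negative and 2 positive.

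Map2k1, which encodes the kinase MEK1 that phosphorylates ERK, was read by 1 probe, A_51_P241074 (chr9:64214568-64214627). It was at 2.11, 1.99 and 1.80 in hNAG-1 pools, against 1.85, 1.80 and 1.89 in WT pools. hNAG-1 replicates 1 and 2 were above every WT pool, and hNAG-1 replicate 3 was narrowly below every WT pool. The mean was 1.96 ± 0.16 in hNAG-1 mice and 1.85 ± 0.045 in WT mice (SD, n = 3 each), and the difference was 0.11 (SE 0.12, 95% confidence interval -0.19 to 0.42, limma adjusted p = 0.718).

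Mapk3, which encodes ERK1, the kinase at the end of the cascade, was read by 2 probes that share 55 bases in a row and so are close to a repeat of one measurement. A_52_P243249 (chr7:122862017-122862076) was at 2.94, 2.71 and 2.70 in hNAG-1 pools, against 2.46, 2.70 and 2.61 in WT pools. A_51_P158628, printed on 10 spots of each array, was at 2.78, 2.55 and 2.52 in hNAG-1 pools and 2.37, 2.53 and 2.43 in WT pools. At both probes hNAG-1 replicate 1 was the highest of all arrays, and the other 2 hNAG-1 pools were close to the highest WT pool. The differences were 0.19 (SE 0.13, 95% confidence interval -0.12 to 0.51, limma adjusted p = 0.565) and 0.17 (SE 0.12, limma adjusted p = 0.586). With slide as a fixed block, a comparison of hNAG-1 replicate 1 with the 3 WT arrays, they were 0.35 and 0.34 (limma adjusted p = 0.676 and 0.670).

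**Figure D2:**
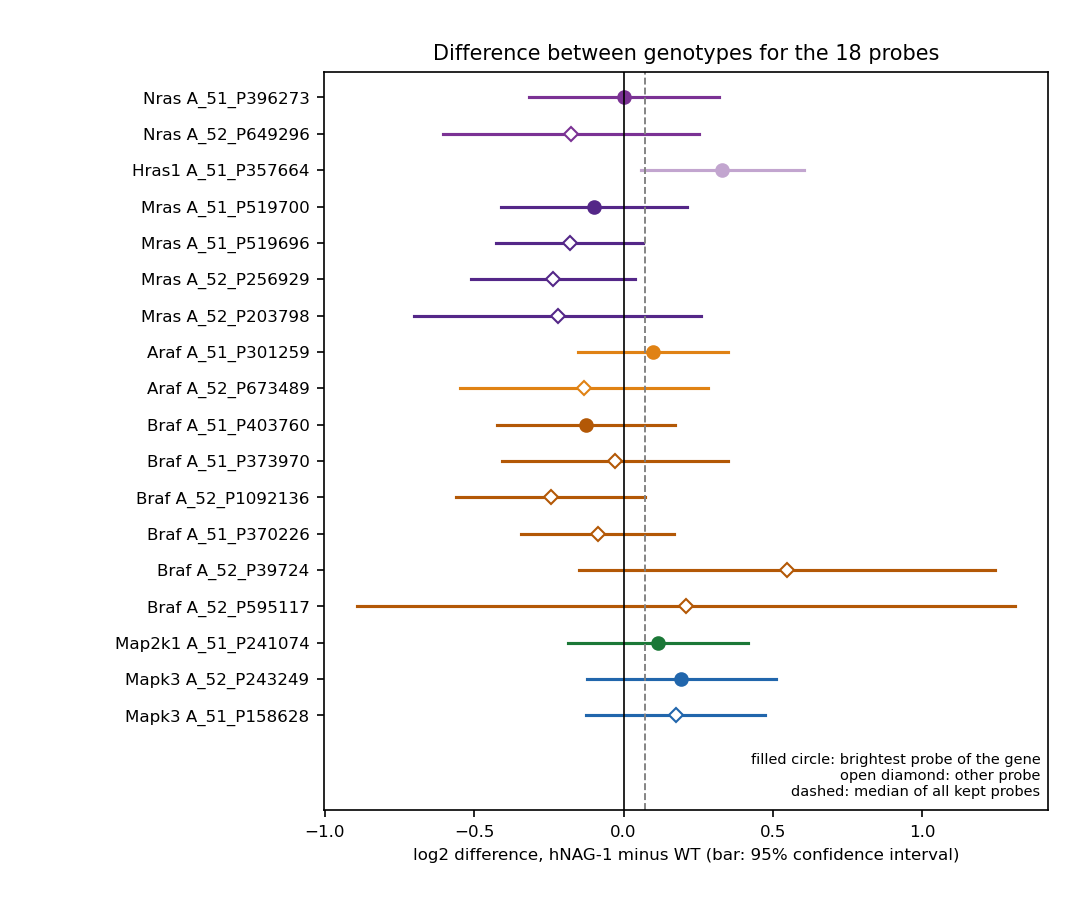
The log2 difference, hNAG-1 minus WT (horizontal axis), with its 95% confidence interval for each of the 18 probes (vertical axis). The interval lies above 0 at Hras1 and holds 0 at the other 17 probes, and 16 of 18 intervals lie between -1 and 1.

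The other genes of the pathway, taken from 10 lists by role, numbered 99, of which 93 had a kept probe. Each gene was represented by its brightest kept probe. None passed the adjusted threshold in limma, where 0.0% of all 21059 genes did, and the smallest adjusted p was 0.152, for Rasgrf2. With a trended and robust variance Rasgrf2 passed (limma adjusted p = 0.0334), and it was the only one of the pathway genes to do so under any alternative run for them. At an unadjusted p under 0.05, 4 were higher and 7 were lower in hNAG-1 mice, which is 4.3% and 7.53% of the 93, where 9.77% of all 21059 genes were higher and 3.7% lower. The differences were positive for 50 genes and negative for 43, with a median of 0.042, where the median of all genes was 0.081. The pools did not overlap at 10 higher and 11 lower genes, or 10.8% and 11.8% of the 93, where 15.0% of all genes were higher without overlap and 5.94% lower.

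**Figure D3:**
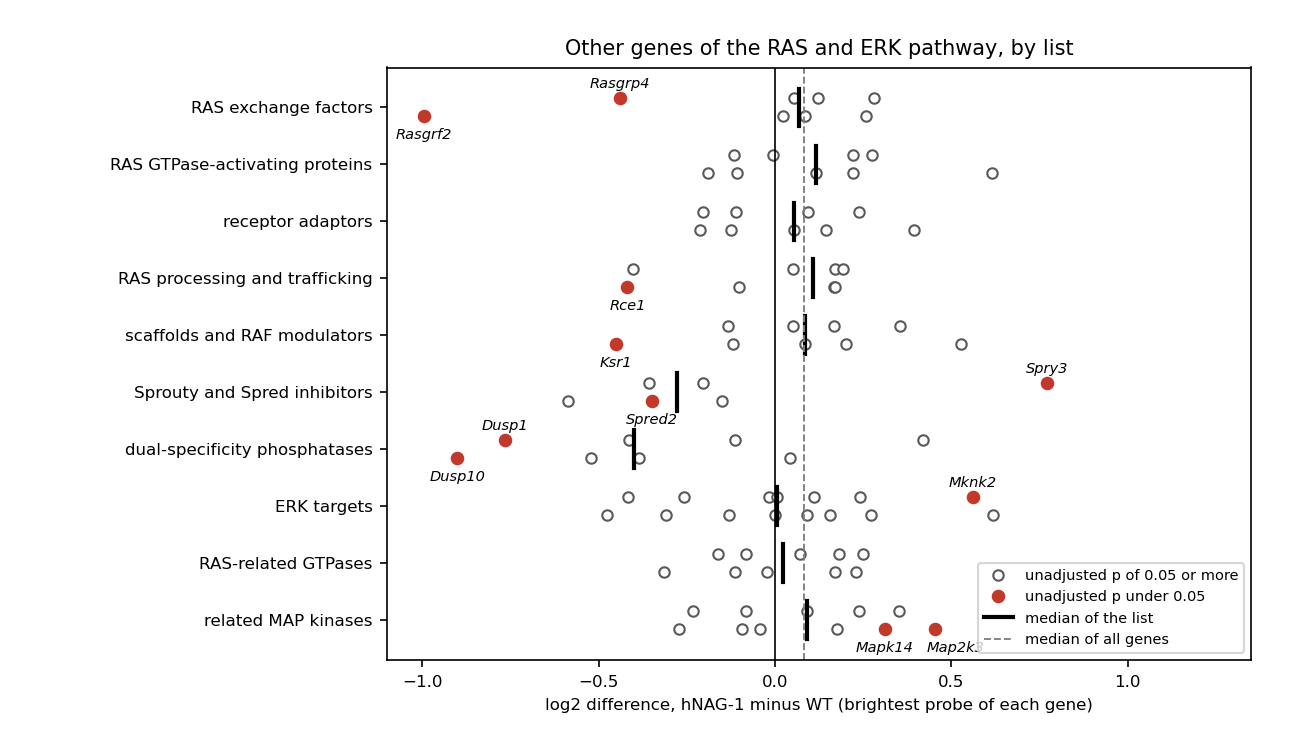
The log2 difference, hNAG-1 minus WT (horizontal axis), of the 93 measured pathway genes in 10 lists (vertical axis), with each list's median as a bar and the median of all genes as a dashed line. Filled points are the 11 genes at an unadjusted p under 0.05, none of which passed adjustment, and the medians of the dual-specificity phosphatases (-0.40) and of the Sprouty and Spred inhibitors (-0.28) lie lowest.

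Upstream of RAS, the 8 exchange factors, which load RAS with GTP, had a median difference of 0.068, with 6 positive and 2 negative. Rasgrf2, a calcium-responsive exchange factor, had the smallest p of all pathway genes. It was at -3.30, -3.12 and -3.39 in hNAG-1 pools, against -2.36, -2.22 and -2.24 in WT pools. The groups were far apart for their spread, at a difference of -0.996 (SE 0.12, limma adjusted p = 0.152), from a single kept probe. Rasgrp4, an exchange factor of mast cells, was at -2.46, -2.35 and -2.48 in hNAG-1 pools and -1.72, -2.07 and -2.18 in WT pools (difference -0.44, limma adjusted p = 0.341), while its dimmer probe gave -0.12. Rasgrp1, an exchange factor of lymphocytes, differed by 0.28 and -0.15 at its 2 probes, with overlapping groups.

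The 9 measured GTPase-activating proteins, which switch RAS off, had a median of 0.12 and none at an unadjusted p under 0.05. Nf1, which encodes neurofibromin, was at 0.69, 0.67 and 0.73 in hNAG-1 pools and 0.46, 0.37 and 0.60 in WT pools, a difference of 0.22 without overlap (limma adjusted p = 0.463), and 0.0034 at its dimmer probe. Rasal2 differed by 0.61 (-0.31 with normexp correction) and Rasa1 by -0.19, both with overlapping groups. The 9 receptor adaptors, which link receptors to the exchange factors, had a median of 0.053, with none at an unadjusted p under 0.05. The differences were 0.39 for Frs3, -0.20 for Gab1 and -0.21 for the brightest Crkl probe. Crkl had 3 kept probes, and the dimmer ones went the other way, at 0.66 and 0.23, with overlapping groups.

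Among 8 genes that process and anchor RAS at membranes the median was 0.11. Rce1, the protease that trims prenylated RAS, was at 1.05, 1.20 and 1.45 in hNAG-1 pools, against 1.86, 1.57 and 1.53 in WT pools. Every hNAG-1 pool was below every WT pool at both of its probes, with differences of -0.42 and -0.52 (limma adjusted p = 0.373 and 0.358). The farnesyltransferase subunits gave -0.40 for Fntb (0.033 at its dimmer probe) and 0.19 for Fnta.

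The 9 measured scaffolds and RAF modulators had a median of 0.085. Lamtor3, a scaffold that holds MEK1 on late endosomes, differed by 0.35 (limma adjusted p = 0.439) and Pebp1, the RAF kinase inhibitor protein, by 0.20 (limma adjusted p = 0.465), each without overlap. Ksr1, a scaffold of RAF, MEK and ERK, differed by -0.45 at its brighter probe (limma adjusted p = 0.382) and by 0.18 at the dimmer.

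The lists with the lowest medians were the dual-specificity phosphatases and the Sprouty and Spred inhibitors. Of 8 measured dual-specificity phosphatases, which remove phosphate from MAP kinases, 6 had a negative difference, and the median was -0.40. The groups did not overlap at 4 of the 8, all lower in hNAG-1 mice, where 5.94% of all genes were. Dusp1 was at 0.94, 0.98 and 1.18 in hNAG-1 pools, against 2.06, 1.75 and 1.58 in WT pools. The lowest WT pool was well above the highest hNAG-1 pool, and the difference was -0.77 (SE 0.16, limma unadjusted p = 0.00339, adjusted p = 0.213). Dusp10 was at -0.81, -0.42 and -0.072 in hNAG-1 pools and 0.19, 0.22 and 0.99 in WT pools, a difference of -0.90 (SE 0.29, limma adjusted p = 0.323). Dusp16 differed by -0.41 without overlap at its brightest probe (limma adjusted p = 0.392). Its other kept probes gave -0.13 and -0.53, both with overlapping groups. Dusp1, Dusp10 and Dusp16 act mainly on the p38 and JNK kinases, while Dusp6 and Dusp7 act mainly on ERK and differed by -0.38 (limma adjusted p = 0.408) and -0.11 (limma adjusted p = 0.768). Dusp6 was at 2.91, 3.15 and 3.21 in hNAG-1 pools and 3.70, 3.22 and 3.51 in WT pools, which do not overlap by a narrow margin, while the Dusp7 groups overlap. Both were chosen after their values were seen, for their target.

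Of 6 measured Sprouty and Spred genes, whose products restrain RAS and RAF, 5 had a negative difference and the median was -0.28. Spred2 was at -1.57, -1.73 and -1.63 in hNAG-1 pools and -1.53, -1.19 and -1.16 in WT pools, and its 2 probes differed by -0.35 and -0.36, both without overlap (limma adjusted p = 0.386 and 0.368). Spry1 was at 0.98, 0.90 and 0.71 in hNAG-1 pools and 1.09, 1.06 and 1.49 in WT pools (difference -0.36, limma adjusted p = 0.426). Spry3 went the other way, at -4.92, -4.41 and -4.96 in hNAG-1 pools and -5.62, -5.47 and -5.51 in WT pools (difference 0.77, limma adjusted p = 0.230, and -0.42 with normexp correction). With normexp correction the medians of these lists were -0.40 for the phosphatases and -0.35 for Sprouty and Spred, which is -0.16 and -0.11 when set against the median over all probes. The median relative to the WT mean was -0.51 on hNAG-1 replicate 1 for the phosphatases, against -0.27 and -0.18 on replicates 2 and 3. The fibroblast markers (median -0.29, 7 of 8 negative) and the macrophage markers also had negative medians, and their part in these values was not tested.

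Downstream, 15 measured ERK targets had a median of 0.0057, with 9 positive and 6 negative. Mknk2, a kinase of the translation factor eIF4E, was at 7.16, 7.33 and 7.03 in hNAG-1 pools, against 6.60, 6.44 and 6.80 in WT pools. The groups did not overlap, and the difference was 0.56 (SE 0.15, limma unadjusted p = 0.00912, adjusted p = 0.259). Rps6ka1, which encodes the ribosomal S6 kinase RSK1, differed by 0.27 without overlap at its brighter probe (limma adjusted p = 0.457). Its dimmer probe gave 0.34 with overlapping groups. Fosl2, a transcription factor of the AP-1 family, differed by -0.42 at its brighter probe and by 0.12 at the dimmer, both with overlap. The summed scaled signal of the list was mostly Mknk2 (89.2% to 91.8% on hNAG-1 arrays and 84.8% to 86.9% on WT arrays), and the other 14 genes summed to 14.4 to 16.6 on hNAG-1 arrays and 15.0 to 17.4 on WT arrays, which overlap.

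The 10 RAS-related GTPases had a median of 0.024 and none at an unadjusted p under 0.05, with 0.25 for Rala, 0.23 for Rit1 and -0.16 for Rras (0.034 with normexp correction). The dimmer Rit1 probe gave -0.026. The 11 kinases of the parallel MAP kinase branches had a median of 0.090. Map2k3, an activator of p38, was at 0.51, 0.13 and 0.0060 in hNAG-1 pools and -0.38, -0.12 and -0.21 in WT pools (difference 0.45, limma adjusted p = 0.364). Its substrate Mapk14, which encodes p38 alpha, was at 2.89, 2.71 and 2.62 in hNAG-1 pools and 2.46, 2.33 and 2.50 in WT pools (difference 0.31, limma adjusted p = 0.380). Neither pair of groups overlapped, and hNAG-1 replicate 1 was the highest array of both genes. Mapk9, which encodes the kinase JNK2, differed by -0.23 at its brightest probe and by -0.0092 and -0.0093 at the other 2.

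The genes whose pattern over the 6 arrays was most like that of a member were found by the root mean square difference of mean-centred log2 values, over the brightest kept probes. For Hras1 they were Park7 (0.019) and Ndufa13 (0.020), with 46 genes within 0.05. For Mras they were Sfpq (0.017) and Gm10336 (0.026), with 25 genes within 0.05, and for Nras Arid1a (0.021) and Atf5 (0.024), with 29. Araf was closest to Zc3hc1 (0.026) and Atp6v0a2 (0.027), with 84 genes within 0.05, and Braf to R3hdm1 (0.022) and Gapvd1 (0.039), with 12. Map2k1 was closest to Zmym4 (0.015) and Pde12 (0.025), with 40, and Mapk3 to Mlf2 (0.032) and Olfr920 (0.043), with 6. The members' own spread over the arrays was small, from 0.068 for Araf to 0.18 for Hras1 as root mean square, so many genes lie this near, and 6 arrays are few points for a likeness.

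**Figure D4:**
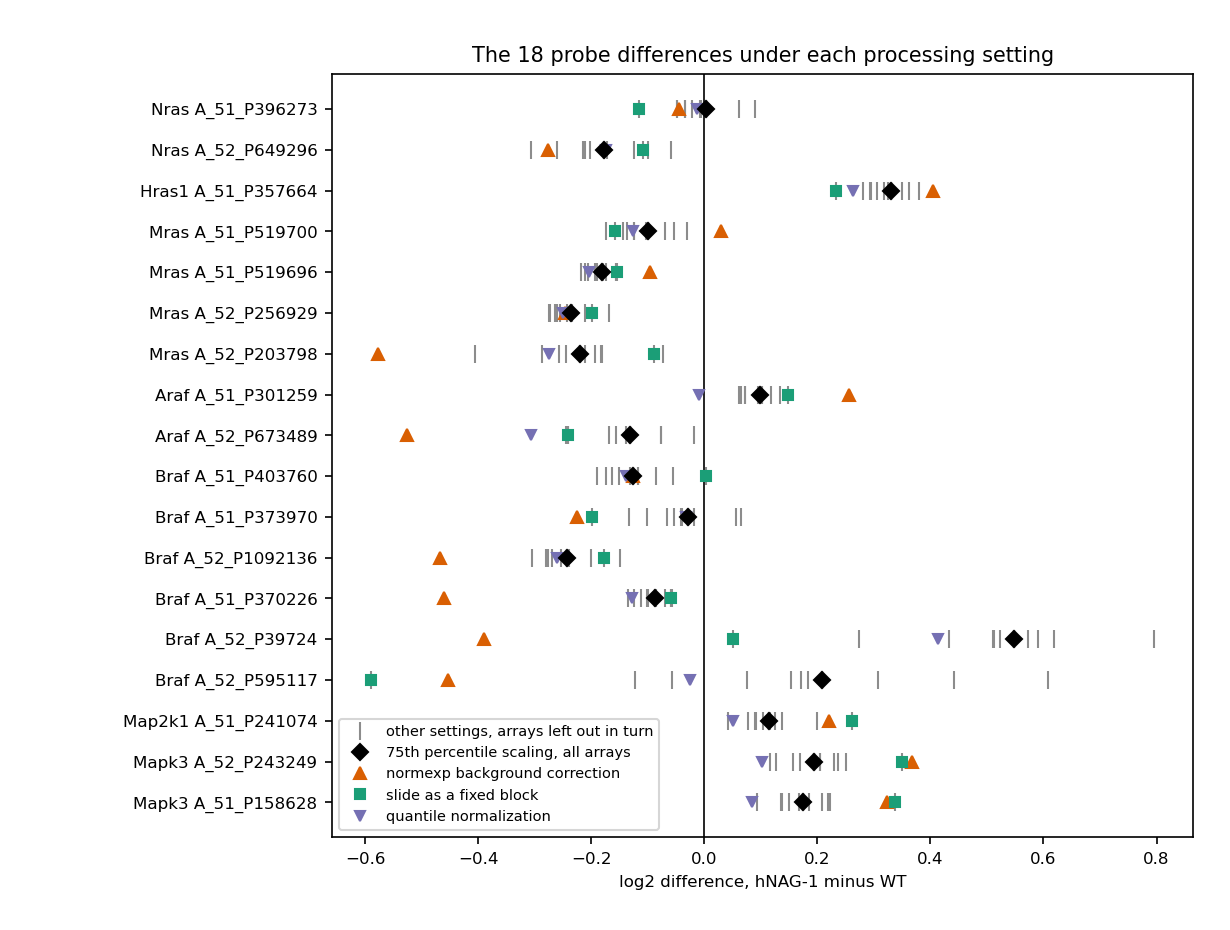
The log2 difference, hNAG-1 minus WT (horizontal axis), of each of the 18 probes (vertical axis) under every processing setting, with the reported value as a diamond and 3 alternatives marked by shape. Hras1, Map2k1 and both Mapk3 probes stay above 0 under every setting, and the 2 intron-crossing Braf probes spread the widest.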

How the data were processed

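The 6 single-colour Agilent whole mouse genome arrays held abdominal WAT RNA of hNAG-1 or WT mice. The study's methods name an Affymetrix array, but the files are scanner output of Agilent Feature Extraction (version 9.5 in the submitters' processing notes). The deposited processed signal is a linear intensity that the scanner software had background-subtracted within each array and that was not normalized between arrays, and the deposited value table equals it. The pools are of different mice, so p-values rest on the spread between 3 pools of 2 mice per genotype, and their number limits the precision. Since 2 hNAG-1 arrays had a slide and scan to themselves, that spread and the genotype difference also hold any difference between slides.

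After removal of 1639 control spots and of spots flagged as outliers, replicate spots were averaged per probe, and the log2 signal was set relative to the 75th percentile of each array. A probe was kept where 3 or more of the 6 arrays had it well above background (31456, after 33 with a missing value were dropped). Names came from accession, symbol or synonym in the RefSeq gene table for mouse (GRCm38), and 8455 of 41174 probes stayed with the file's own name. Positions follow the array design (mm7), for which no annotation was used here, so exon and UTR are not given. The test between genotypes was limma 3.58.1 (lmFit and eBayes, R 4.3.3), two-sided, with p-values adjusted by Benjamini-Hochberg over all kept probes and a threshold of 0.05. The fit was also run on simulated data, which held no difference between slides and so cannot speak to the slide layout here.

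The members, the marker lists and the pathway lists were chosen with earlier results of these data known. All 7 members are described with all their probes. Up to 3 genes of each pathway list with the smallest unadjusted p are named, and the 2 genes nearest in pattern to each member. Dusp6 and Dusp7 were added after their values were seen. Alternatives were quantile normalization, the array median or another set of probes for scaling, normexp background correction (offset 50), other filters on dim probes, 1 value per gene, a trended and robust variance, slide as a block or within the shared slide, the replicate number as a block, the value table, and each array left out in turn. Slide and scan coincide.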

Additional observations from a re-analysis of the deposited data

How the results depend on the processing

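Over the 20 alternatives, no member probe passed the adjusted threshold (smallest limma adjusted p = 0.201), and 306 of 330 probe values kept their direction. That share includes alternatives that leave a probe's difference unchanged and so could not reverse it. These are the filters on dim probes, the brightest probe per gene, the trended and robust variance and the replicate block. The value table is another for every member probe printed on 1 spot. Slide as a fixed block and the fit within the shared slide gave the same differences as each other. The count of 0 calls over all probes became 217 higher and 50 lower with a trended and robust variance, and 1 and 1 when slide was a fixed block. The count of member probes at an unadjusted p under 0.05, 1 in the reported fit, was 2 with quantile normalization and with the 75th percentile over probes well above background on all arrays, 0 with normexp correction, with slide as a fixed block, within the shared slide and with the replicate block, and 0 to 2 with an array left out. With the array median it stayed 1, but the probe was Braf A_52_P39724 (limma unadjusted p = 0.0489) and not Hras1 (limma unadjusted p = 0.149). Among the pathway genes, Rasgrf2 passed the adjusted threshold with the trended and robust variance. Arrays of the same replicate number had correlations of 0.075, 0.49 and 0.084 in their deviations from the group means. Pairs of unlike number are not given beside them, so these values cannot settle whether the replicate numbers pair the arrays. The count without overlap, 4 of 18 in the reported fit, was 2 with the array median and 4 to 10 with an array left out. It was 1 of 7 with the brightest probe or the mean per gene. None is given within the shared slide, where 1 hNAG-1 array stood against 3 WT arrays. The shares of all probes without overlap under these settings are not given, so the counts are not read as results about the members. Fewer arrays separate more easily by construction. The fit with the brightest probe per gene leaves out the 3 lower probes without overlap, none of which is the brightest of its gene. For the other shifts the cause was not tested.

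Of the 18 probes, 11 kept their direction throughout. Nras A_51_P396273 turned to -0.012 with quantile normalization, -0.023 with the array median, -0.035 with the other percentile, -0.046 with normexp, -0.12 with slide as a fixed block or within the slide, -0.0062 with slide as a random block, and -0.048 to 0.089 with an array left out. Mras A_51_P519700 turned to 0.030 with normexp, Araf A_51_P301259 to -0.0098 with quantile normalization, and Braf A_51_P403760 to 0.0023 with slide as a fixed block or within the slide. Braf A_51_P373970 ran from -0.13 to 0.065 with an array left out. Braf A_52_P39724 turned to -0.39 with normexp. Braf A_52_P595117 turned to -0.025 with quantile normalization, -0.45 with normexp and -0.59 with slide as a fixed block or within the slide, and ran from -0.12 to 0.61 with an array left out. The cause was not tested. The medians of the phosphatase and the Sprouty and Spred lists stayed negative, from -0.51 to -0.22 and from -0.30 to -0.16 with an array left out. The intron-crossing Braf probes A_52_P39724 and A_52_P595117 and the dim Araf probe had the lowest signals of the 18, with SEs of 0.28, 0.45 and 0.17. The part of low signal in these shifts was not tested.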
